A study of Mus musculus with 25 samples.

Results

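Metallothioneins and the genes that move zinc across membranes were followed through 5 groups of mouse liver and liver tumor: *Mt1*, *Mt2*, *Mtf1*, *Slc30a1*, *Slc30a10*, *Slc39a4* and *Slc39a14*. These 7 genes, of 48795 gene identifiers in the data, were chosen by symbol, each symbol leading to a single Ensembl gene, and their choice followed from their levels in untreated liver of mice on the control diet against the other groups. All 7 passed the filter on low counts, as did 15625 genes in all. The 25 libraries came from male mice of the inbred strain C57BL/6J. Untreated mice gave liver on a control diet (nonDEN L-CD, n = 3) and on a western-style diet (nonDEN L-WD, n = 4). Mice given diethylnitrosamine (DEN), a carcinogen that hepatocytes activate, as an intraperitoneal dose of 25 mg/kg at 2 weeks of age gave 4 livers from the control diet (DEN L-CD) and, from the western diet, 8 samples of the liver around tumors (DEN PT-WD) and 6 of the tumors themselves (DEN T-WD). Diets began at weaning and tissue was collected at 36 weeks, or at up to 39 weeks by the supplementary legends. Tumors of DEN L-CD mice were too small to be dissected, so those livers may hold tumor tissue, and the labels do not say which tumors and peritumoral samples came from the same mouse. The study set these groups side by side to separate the effects of diet, carcinogen and tumor growth on liver gene expression.

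Metallothioneins are small, cysteine-rich proteins that bind zinc and copper and buffer the free metal in the cell. Their genes are switched on by *Mtf1*, a transcription factor that senses zinc and binds short metal response elements, and in liver also by glucocorticoids and by the interleukin 6 arm of the acute phase response. Proteins of the Slc30 family move zinc out of the cytosol and those of the Slc39 family bring it in. Among the genes followed here, *Slc30a1* encodes the zinc exporter of the plasma membrane and is itself driven by Mtf1, *Slc30a10* encodes a relative that mainly exports manganese, *Slc39a4* encodes the zinc importer best known from the intestine, and *Slc39a14* encodes an importer of zinc, iron and manganese that inflammation raises in hepatocytes.

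In the GENCODE annotation of GRCm38, *Mt2* (chr8:94172664-94173568) and *Mt1* (chr8:94179082-94180327) are neighbours on the plus strand. The others are *Mtf1* (chr4:124802104-124849800), *Slc30a1* (chr1:191906767-191913247) and *Slc30a10* (chr1:185454848-185468762) on the plus strand, and *Slc39a14* (chr14:70303469-70351425) and *Slc39a4* (chr15:76612383-76617384) on the minus strand.

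The metallothionein promoters are shown because the levels of both genes moved together. That of *Slc30a1* is shown for contrast, since it is a target of the same factor with another pattern of levels. Sequences are from RefSeq (GRCm38.p6), run from 250 bases before to 50 bases after the annotated start, and are all on the plus strand, at chr8:94178839-94179138 for *Mt1*, chr8:94172368-94172667 for *Mt2* and chr1:191906531-191906830 for *Slc30a1*. Capitals mark the core of the metal response element, searched as TGCACNC or TGCGCNC on both strands.
Mt1: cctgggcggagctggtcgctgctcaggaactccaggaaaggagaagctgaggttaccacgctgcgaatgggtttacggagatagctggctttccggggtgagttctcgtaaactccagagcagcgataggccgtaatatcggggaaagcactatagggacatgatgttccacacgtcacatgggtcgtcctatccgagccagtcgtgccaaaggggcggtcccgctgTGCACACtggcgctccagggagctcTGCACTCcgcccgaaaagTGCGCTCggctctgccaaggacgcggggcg
Mt2: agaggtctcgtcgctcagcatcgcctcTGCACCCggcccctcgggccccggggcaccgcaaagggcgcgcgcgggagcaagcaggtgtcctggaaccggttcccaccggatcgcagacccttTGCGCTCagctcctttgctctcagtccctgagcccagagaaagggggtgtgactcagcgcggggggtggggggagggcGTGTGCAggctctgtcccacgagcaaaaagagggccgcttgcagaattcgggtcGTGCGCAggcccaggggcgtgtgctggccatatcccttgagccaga
Slc30a1: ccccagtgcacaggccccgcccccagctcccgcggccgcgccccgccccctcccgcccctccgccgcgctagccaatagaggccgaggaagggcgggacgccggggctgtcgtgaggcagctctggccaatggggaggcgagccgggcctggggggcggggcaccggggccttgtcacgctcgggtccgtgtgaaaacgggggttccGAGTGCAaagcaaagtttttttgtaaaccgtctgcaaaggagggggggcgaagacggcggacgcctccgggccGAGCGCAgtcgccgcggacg

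The *Mt1* window held 3 cores, beginning at bases -23, 2 and 20 counted from the start as 0, and the *Mt2* window held 4, beginning at bases -223, -128, -50 and 4. The *Slc30a1* window held 2, at bases -43 and 30. *Slc30a10* had 3, of which a pair overlap on opposite strands, and *Mtf1* had 0. Promoter sequences were at hand for these 5 of the 7 genes and not for *Slc39a4* and *Slc39a14*. Of 32841 promoters of this length, 25.7% held at least 1 such core, 7.12% at least 2 and 0.518% at least 4. A STAT-type motif, TTCNNNGAA, was in none of the 5 windows and in 8.3% of all promoters, and the antioxidant-type motif TGACNNNGC was present 1 time each in *Mt2* and *Slc30a1* and in 12.4% of all promoters. These matches describe letters in a window and not bound sites, and cores outside the windows were not searched.

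Depth ranged from 21530083 to 38074411 expected counts per library, with a median of 27610432. Albumin (*Alb*) was at 21880 to 99740 TPM (transcript abundance per library on a per-length scale) in the 25 libraries, so each carried the main hepatocyte transcript. Tumor replicate 5 stood apart from the other tumors, with 44697 TPM over 10 hepatocyte markers against 143380 to 165200 in the other 5. The libraries that were not tumors summed to 59237 to 92567 TPM. Markers of this list went both ways: *Alb* had a median of 89680 TPM in DEN T-WD and 40460 in DEN PT-WD, and *Cyp2e1* of 1888 and 5310. Markers of pancreatic acinar cells summed to over 1000 TPM in 8 libraries of all 5 groups, up to 6898 TPM in DEN PT-WD replicate 1, and the results that follow are also given without those 8 libraries where that changed a call. Summed leukocyte markers (12 genes) were at 141 to 317 TPM in nonDEN L-CD, nonDEN L-WD and DEN L-CD, 249 to 522 TPM in DEN PT-WD and 338 to 982 TPM in DEN T-WD. The 7 bile duct markers summed to 37.5 to 76.1 TPM, 79.1 to 332 TPM and 393 to 843 TPM in the same libraries. Most of that last sum was *Spp1*, the osteopontin gene, which macrophages also express, at 372 to 817 TPM in the tumors, while the duct keratin *Krt19* was at 0.80 to 4.60 TPM there. The part of these cells in the results that follow was not tested. In bulk tissue, fewer cells of a type and less RNA per cell cannot be told apart.

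The metallothioneins were highest in nonDEN L-CD and had their largest SD there. The 3 libraries of nonDEN L-CD held *Mt1* at 131.7, 2134 and 2016 TPM. *Mt2* was at 108.6, 2258 and 2160 TPM in the same order. Replicates 2 and 3 thus stood above all other libraries of the series, with *Mt2* at ranks 66 and 64 of all genes by TPM, and replicate 1 lay within the range of the tumors for *Mt2* and of nonDEN L-WD for *Mt1*. Replicate 1 was also among the libraries with over 1000 TPM of pancreatic acinar markers, at 1236 TPM against 0.42 and 494.8 in replicates 2 and 3. The part of this in its levels was not tested. In nonDEN L-WD, *Mt1* was at 55.9, 14.3, 40.5 and 139.3 TPM and *Mt2* at 31.2, 7.07, 24.0 and 31.2 TPM. In DEN L-CD, *Mt1* was at 128.8, 26.3, 22.6 and 43.3 TPM and *Mt2* at 73.1, 12.9, 12.3 and 24.8 TPM. These 2 groups overlapped for both genes, and replicate 1 alone set the upper end of DEN L-CD.

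Peritumoral liver and tumor held intermediate levels. The 8 libraries of DEN PT-WD had *Mt1* from 52.7 to 828 TPM with a median of 105.7 TPM, and *Mt2* from 37.3 to 851 TPM with a median of 79.7 TPM. Replicates 7 and 8 were the highest for both genes, at 828 and 320 TPM of *Mt1*, and no other replicate passed 176.8 TPM. The 6 tumors were more even, with *Mt1* from 148.2 to 416 TPM (median 234.7) and *Mt2* from 103.4 to 469 TPM (median 174.5). By mean level the order for *Mt1* was nonDEN L-CD (1427 ± 1124 TPM, SD, n = 3), DEN T-WD (263.9 ± 111.2, n = 6), DEN PT-WD (219.9 ± 260.0, n = 8), nonDEN L-WD (62.5 ± 54.0, n = 4) and DEN L-CD (55.2 ± 49.9, n = 4). For *Mt2* it was the same but for the last pair, from 1509 ± 1213 TPM (n = 3) down to 23.4 ± 11.4 TPM (n = 4) in nonDEN L-WD. All neighbours in these orders overlapped. Of groups further apart, in TPM, *Mt1* in nonDEN L-WD and DEN L-CD lay below every tumor, as did *Mt2*, and *Mt2* in nonDEN L-WD also lay below all libraries of DEN PT-WD. Both genes in DEN L-CD, and *Mt2* in nonDEN L-WD, lay below all of nonDEN L-CD. In normalised counts *Mt1* in tumors (1217 to 3281) overlapped with nonDEN L-WD (up to 1683) and DEN L-CD (up to 1597), and *Mt2* in DEN PT-WD (from 256) overlapped with nonDEN L-WD (up to 315).

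**Figure D1:**
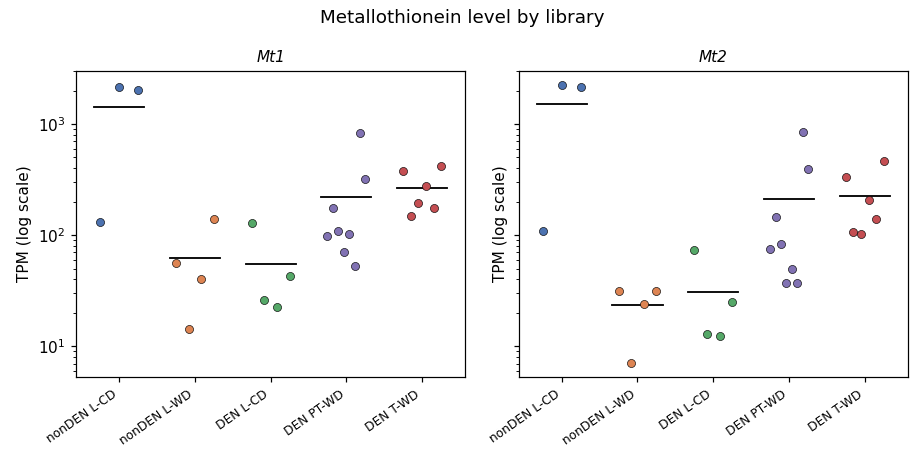
Level of *Mt1* (left) and *Mt2* (right) in TPM on a log axis, a point for each of the 25 libraries in order of replicate number within its group, and a line for the group mean. In nonDEN L-CD replicate 1 lies at 131.7 and 108.6 TPM and replicates 2 and 3 at 2016 to 2258 TPM, and DEN PT-WD replicate 7 stands above the rest of its group.

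The ratio of *Mt1* to *Mt2* was lower where their levels were high. In the 6 libraries whose summed *Mt1* and *Mt2* reached 500 TPM, a limit set after the values were seen, *Mt1* was at 0.812 to 1.12 times the TPM of *Mt2*. In the other 19 libraries it was at 1.2 to 4.47 times. The highest ratio, 4.47, was that of nonDEN L-WD replicate 4, where *Mt1* had 1580 expected counts and *Mt2* had 296. The value of *Mt2* carries an uncertainty that *Mt1* does not: 45.8% of its words of 50 bases lie in *Gm45774*, a gene on the opposite strand (0 to 67 expected counts), while none of those of *Mt1* occur in another gene, and the sources used here do not state whether counting used strand.

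**Figure D2:**
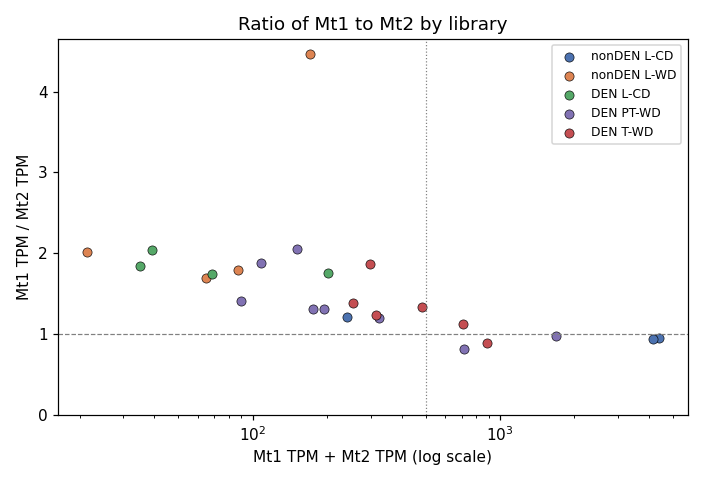
Ratio of *Mt1* TPM to *Mt2* TPM against the sum of both TPM values (log axis) in 25 libraries, coloured by group, with a dashed line at equal levels and a dotted line at 500 TPM. The 6 libraries right of the dotted line lie at 0.812 to 1.12, and the other 19 lie above them.

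In normalised counts the transcription factor *Mtf1* was higher in all 3 libraries of nonDEN L-CD (629 to 778) than in any other library (up to 588). In TPM it was nearly level, at 5.58 to 10.29 over all libraries, and its highest group mean (nonDEN L-CD, 9.11 ± 1.02 TPM, n = 3) was 1.40 times its lowest (DEN L-CD, 6.49 ± 0.87 TPM, n = 4). Metallothionein means by comparison spanned 25.8-fold for *Mt1* and 64.6-fold for *Mt2*, and with a library left out 19.4 to 46.4-fold (the highest without DEN L-CD replicate 1) and 48.5 to 94.5-fold (the highest without nonDEN L-CD replicate 1). The exporter *Slc30a1* ran from 7.62 to 20.27 TPM. Its nonDEN L-CD values were 14.7, 8.67 and 8.39 TPM, so the library low in metallothioneins was the high one. It was at 7.62 to 10.23 TPM in nonDEN L-WD, 9.14 to 10.93 TPM in DEN L-CD, 11.1 to 19.2 TPM (median 14.4) in DEN PT-WD and 12.6 to 20.3 TPM (median 18.2) in DEN T-WD. All peritumoral and tumor libraries therefore lay above all libraries of nonDEN L-WD and DEN L-CD in TPM, while DEN PT-WD and DEN T-WD overlapped. In normalised counts *Slc30a1* did not separate in this way: tumor replicate 5 (970) lay within nonDEN L-WD (932 to 998) and below DEN L-CD (1076 to 1213), and DEN PT-WD replicates 1, 5 and 6 (1072, 1084 and 1041) lay within or below DEN L-CD.

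*Slc30a10* was highest in nonDEN L-CD and lowest in tumors. It was at 12.1, 16.3 and 13.7 TPM in nonDEN L-CD, 5.98, 7.39, 6.51 and 5.91 TPM in nonDEN L-WD, and 5.92, 5.29, 5.89 and 5.87 TPM in DEN L-CD. Peritumoral liver held 2.62 to 6.83 TPM (median 5.28) and tumors 1.97 to 3.85 TPM (median 3.61). Unlike the metallothioneins, all 3 libraries of nonDEN L-CD were above all those of the other groups. Only DEN PT-WD replicate 7, at 2.62 TPM, reached into the range of the tumors, and it was also the peritumoral library with the most *Mt1*, the most *Slc30a1* and the least *Slc39a4*.

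*Slc39a4* was highest in tumors. Its levels were 8.79, 5.72 and 9.16 TPM in nonDEN L-CD, 6.90, 10.63, 5.53 and 3.78 TPM in nonDEN L-WD, and 9.13, 8.20, 12.4 and 13.1 TPM in DEN L-CD, ranges that overlap. They were 8.28 to 36.1 TPM (median 20.2) in DEN PT-WD and 41.4 to 127.3 TPM (median 59.6) in DEN T-WD, so every tumor was above every peritumoral library in TPM. Tumor replicate 5, the library low in hepatocyte markers, had the highest value, and the other 5 tumors lay between 41.4 and 62.4 TPM.

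*Slc39a14* was the most abundant of the 4 transporters by group mean. In nonDEN L-CD it was at 109.4, 209.0 and 214.1 TPM, replicate 1 again the lowest. It was at 74.5 to 84.8 TPM in nonDEN L-WD, 68.6 to 83.3 TPM in DEN L-CD, 64.6 to 102.9 TPM (median 76.8) in DEN PT-WD and 49.3 to 115.2 TPM (median 110.4) in DEN T-WD. Replicate 7 of DEN PT-WD was the highest of its group here too, and tumor replicate 5 was the lowest of its group.

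**Figure D3:**
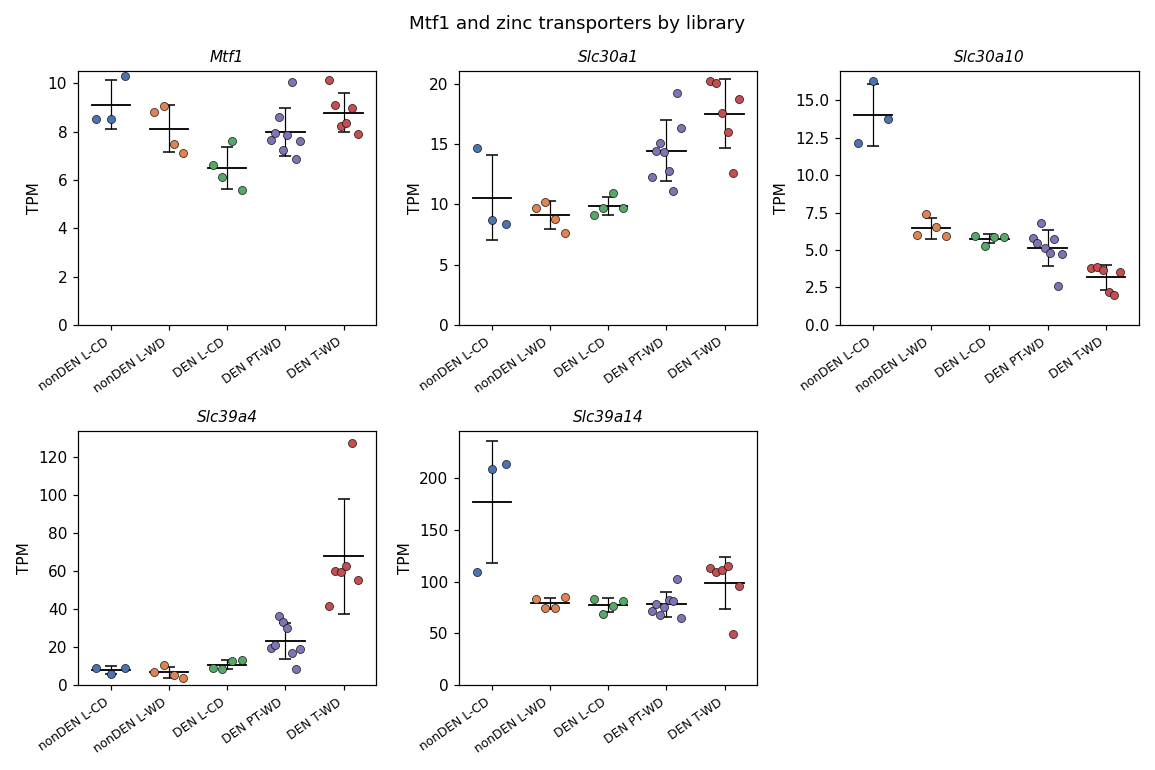
Level in TPM of *Mtf1* and the 4 transporters, a point per library in order of replicate number, with a line for the mean and bars for the SD of each group (n = 3, 4, 4, 8 and 6 from left to right). *Slc30a10* descends from 12.1 to 16.3 TPM in nonDEN L-CD to 1.97 to 3.85 TPM in DEN T-WD, and *Slc39a4* is at 41.4 to 127.3 TPM in tumors against 3.78 to 36.1 TPM in all other libraries.

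The differences from nonDEN L-CD are the ones on which these genes were chosen and are given without a test, as log2 fold changes of normalised counts. Against nonDEN L-CD, the log2 values of nonDEN L-WD, DEN L-CD, peritumoral liver and tumors are given in that order. *Mt1* differed by -4.44, -4.55, -3.01 and -2.86. The same values for *Mt2* were -6.09, -5.62, -3.22 and -3.27, and they carry the spread of replicate 1 within the group of reference. With any library left out, *Mt1* ranged from -5.31 to -4.08, -5.48 to -4.19, -3.68 to -2.64 and -3.43 to -2.50, and *Mt2* from -6.66 to -5.70, -6.55 to -5.24, -4.02 to -2.83 and -3.85 to -2.88. The lowest values of *Mt1* came without nonDEN L-WD replicate 4, DEN L-CD replicate 1, DEN PT-WD replicate 7 and nonDEN L-CD replicate 1, in the same order. *Slc30a10* differed by -1.24, -1.32, -1.79 and -2.62 and *Slc39a14* by -1.27, -1.2, -1.54 and -1.29. *Slc39a4* differed by -0.40, 0.38, 1.18 and 2.59. *Mtf1* stayed within -0.54 and -0.31, and *Slc30a1* within -0.35 and 0.25. With any library left out *Mtf1* ran from -0.61 in tumors to -0.25 in nonDEN L-WD, and *Slc30a1* from -0.50 in nonDEN L-WD to 0.55 in tumors.

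The 6 comparisons among the other groups were tested by edgeR's quasi-likelihood test, with p-values adjusted by Benjamini-Hochberg over 15625 genes. A gene counted as changed had an adjusted p of 0.05 or less together with a log2 fold change of 1 or more in either direction. DEN L-CD against nonDEN L-WD had 0 of 7 genes changed, with 2 (*Slc39a4* and *Mtf1*) at an unadjusted p under 0.05 and 0 by DESeq2 or by limma on log2 TPM, and 0.25% of all tested genes were changed. These comparisons share groups and so are not independent of each other. Counts at an unadjusted p under 0.05 are given without the share of all tested genes at that limit, so they are not results about the genes counted. In tumors against peritumoral liver 37.7% of all tested genes passed the p-value threshold even after adjustment. On the scale of log2(TPM + 1) the median of all tested genes was shifted by 0.09 in tumors against peritumoral liver and by up to 0.32 in tumors against DEN L-CD, where it was 0.01 and 0.03 in normalised counts, so small differences in TPM are read against that shift.

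In tumors against peritumoral liver, *Slc39a4* rose and was the only one of the 7 genes counted as changed, where 7.90% of all tested genes were. Its log2 fold change was 1.41 (SE 0.26, adjusted p = 0.000226), from a mean of 23.0 ± 9.34 TPM (n = 8) to 67.6 ± 30.2 TPM (n = 6). Scaled by normalised counts, the groups overlapped, unlike in TPM. Without tumor replicate 5 or any other of the 14 libraries the change stayed between 1.17 and 1.54, and without the 8 libraries with pancreatic transcripts it was 1.33 (adjusted p = 0.0164).

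*Slc30a10* differed by -0.83 (SE 0.17, adjusted p = 0.000702) in the same comparison, past the p-value threshold but short of the fold that was required, and passed both with the replicate number as a block (-1.01, adjusted p = 0.00216). *Mt1* and *Mt2* differed by 0.14 (95% interval -1.10 to 1.39, adjusted p = 0.882) and -0.05 (-1.44 to 1.34, adjusted p = 0.965). The value of *Mt2* depended on the setting. It was 1.41 with the replicate number as a block, 0.79 by limma on log2 TPM and -0.82 without the 8 libraries with pancreatic transcripts. It passed in none of these (adjusted p = 0.0858, 0.422 and 0.473). *Mtf1* differed by -0.01 (-0.12 to 0.10), and by 0.13 on the scale of log2 TPM. *Slc30a1* differed by 0.15 (SE 0.14, adjusted p = 0.399) and *Slc39a14* by 0.25 (SE 0.17, adjusted p = 0.268). With a library left out they ranged from 0.11 to 0.25 (adjusted p of 0.121 to 0.581) and from 0.19 to 0.41 (0.0139 to 0.453), all short of the required fold.

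In peritumoral liver against liver of untreated mice on the same diet, *Slc39a4* and *Mt2* rose, 2 of 7 genes where 2.76% of all tested genes were changed. *Slc39a4* rose by 1.59 (SE 0.33, adjusted p = 0.00482), with 7 of 8 peritumoral libraries above all 4 of nonDEN L-WD in TPM and replicate 7 (8.28 TPM) within their range. *Mt2* rose by 2.87 (SE 0.95, adjusted p = 0.0495), and all 8 peritumoral libraries were above all 4 of nonDEN L-WD in TPM, but not in the normalised counts that were tested, where nonDEN L-WD replicate 4 (315) was above DEN PT-WD replicates 4 and 6 (265 and 256). Its call was marginal: it was lost without DEN PT-WD replicates 2, 3, 7 or 8 or without any of the 4 libraries of nonDEN L-WD, with log2 fold changes of 2.08 to 3.18 and adjusted p of 0.0306 to 0.113 over all 12 fits, and also with no filter on low counts (0.0679), in a fit of the 2 groups alone (0.0675) and with the replicate number as a block (1.60, adjusted p = 0.209). Without the 8 libraries with pancreatic transcripts neither gene passed, at 1.51 for *Slc39a4* (adjusted p = 0.125) and 4.00 for *Mt2* (adjusted p = 0.107). *Mtf1* differed by -0.22 (SE 0.06, adjusted p = 0.0267), *Slc30a1* by 0.45 (adjusted p = 0.0640) and *Slc30a10* by -0.55 (adjusted p = 0.0556), all short of the required fold. *Mt1* differed by 1.44 (SE 0.78, adjusted p = 0.219), and by 0.76 without DEN PT-WD replicate 7 and 2.31 without nonDEN L-WD replicate 4.

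Peritumoral liver against DEN L-CD liver had 0 of 7 genes changed by edgeR, with 3 at an unadjusted p under 0.05, and 1 changed by DESeq2 and 1 by limma on log2 TPM, *Mt2* in each. Of all tested genes 1.90% were changed. *Mt2* differed by 2.40 (SE 0.92, adjusted p = 0.0934), *Mt1* by 1.55 (SE 0.78, adjusted p = 0.202), *Slc39a4* by 0.80 (SE 0.31, adjusted p = 0.101) and *Slc30a10* by -0.47 (SE 0.19, adjusted p = 0.111). With a library left out, *Mt2* ranged from 1.61 to 3.33 and *Mt1* from 0.87 to 2.47, with no call, the lowest without DEN PT-WD replicate 7 and the highest without DEN L-CD replicate 1. With the replicate number as a block *Slc39a4* passed (1.03, adjusted p = 0.00880). This pair differs in diet and in tumor burden together, which cannot be told apart.

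Tumors differed from each of nonDEN L-WD and DEN L-CD in 3 genes, *Slc39a4*, *Mt2* and *Slc30a10*. Against nonDEN L-WD, where 15.7% of all tested genes were changed, *Slc39a4* rose by 3.00 (SE 0.36, adjusted p = 7.23e-07), *Mt2* rose by 2.82 (SE 0.97, adjusted p = 0.0192) and *Slc30a10* fell by 1.38 (SE 0.20, adjusted p = 7.66e-06). Against DEN L-CD, where 14.3% were changed, they were at 2.21 (SE 0.35, adjusted p = 2.26e-05), 2.35 (SE 0.94, adjusted p = 0.0443) and -1.30 (SE 0.20, adjusted p = 2.06e-05). *Mt2* lost its call against nonDEN L-WD without nonDEN L-WD replicate 2 (adjusted p = 0.0590), and against DEN L-CD without any of DEN L-CD replicates 2, 3 and 4 or tumor replicates 1, 4 and 6 (log2 fold changes of 2.02 to 3.28, the highest without DEN L-CD replicate 1, and adjusted p of 0.0203 to 0.115 over all 10 fits) or with no filter on low counts (2.34, adjusted p = 0.0619). Without the 8 libraries with pancreatic transcripts *Mt2* passed in neither (3.18, adjusted p = 0.0610, and 1.75, adjusted p = 0.156), while *Slc39a4* and *Slc30a10* passed in both. By limma on log2 TPM, *Slc30a10* fell short of the required fold in both (-0.86 and -0.72). *Mt1* differed by 1.58 and 1.69 (adjusted p = 0.110 and 0.0922) and did not pass, nor did it by DESeq2 (adjusted p = 0.0758 and 0.0583) or with no filter on low counts (0.154 and 0.130). It passed in both comparisons in fits of the 2 groups alone (adjusted p = 0.0465 and 0.0279), by limma on log2 TPM (0.0122 and 0.00801) and with the replicate number as a block (0.00934 and 0.00176). Against nonDEN L-WD it also passed without nonDEN L-WD replicate 4 (2.45, adjusted p = 0.0336) and without the 8 libraries with pancreatic transcripts (2.72, adjusted p = 0.0479). Against DEN L-CD it passed without DEN L-CD replicate 1 (2.62, adjusted p = 0.0260) but not without those 8 (1.25, adjusted p = 0.211). These 2 replicates had the most *Mt1* in their groups. *Slc30a1* differed from nonDEN L-WD by 0.60 (SE 0.17, adjusted p = 0.00466) and from DEN L-CD by 0.40 (SE 0.16, adjusted p = 0.0522). *Mtf1* differed from nonDEN L-WD by -0.23 (adjusted p = 0.00718), short of the required fold, and by 0.10 on the scale of log2 TPM.

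The other zinc transporters were looked at in the same way. Of 8 other Slc30 genes 6 were tested and of 12 other Slc39 genes 11, and by edgeR none was counted as changed in any of the 6 comparisons, where 0.25% to 15.7% of all tested genes were. In tumors against peritumoral liver 3 exporters and 5 importers had an unadjusted p under 0.05, and DESeq2 and limma on log2 TPM called 0. After adjustment 3 exporters and 4 importers passed the p-value threshold alone, 7 of 17 where 37.7% of all tested genes did. All 7 were higher in tumors, and they are named after their values were seen: *Slc30a4* (0.63), *Slc30a7* (0.46), *Slc30a6* (0.34), *Slc39a6* (0.67), *Slc39a7* (0.54), *Slc39a11* (0.48) and *Slc39a13* (0.43). The median log2 fold change was 0.26 over the 6 exporters and 0.13 over the 11 importers, against 0.01 over all tested genes. Limma on log2 TPM called 1 exporter in tumors against nonDEN L-WD and 1 against DEN L-CD. In peritumoral liver against nonDEN L-WD 2 exporters and 1 importer had an unadjusted p under 0.05, against DEN L-CD 0 and 1, and in DEN L-CD against nonDEN L-WD 0 and 2.

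**Figure D4:**
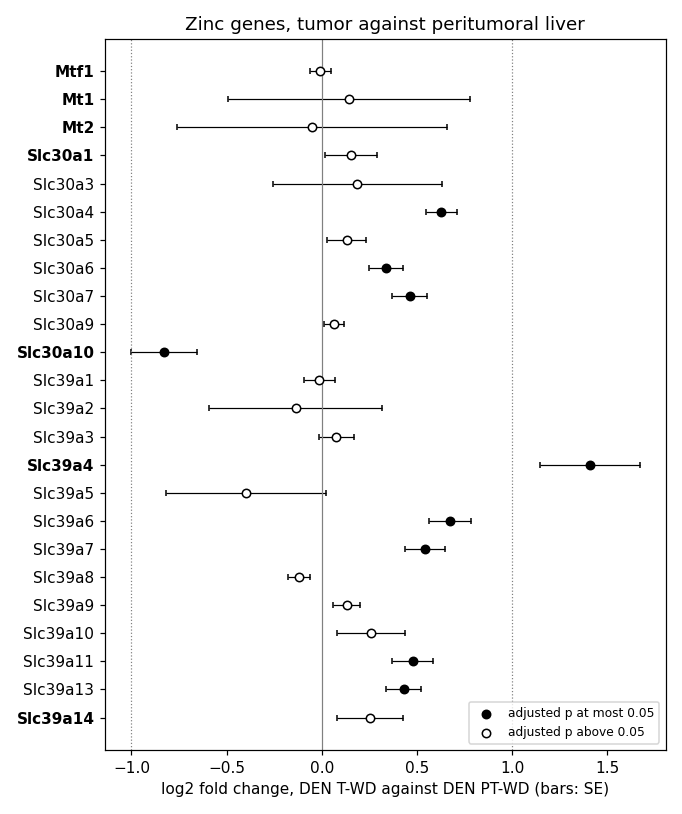
Log2 fold change of normalised counts in DEN T-WD against DEN PT-WD for the 7 genes followed here (bold) and the 6 and 11 other tested genes of the Slc30 and Slc39 families, with bars for the SE, filled points for an adjusted p of at most 0.05 and dotted lines at a log2 fold change of -1 and 1. *Slc39a4*, at 1.41, is the only point past a dotted line, and *Slc30a10* is the only filled point left of 0.

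The other metallothioneins were near 0. *Mt3*, a gene of the brain, reached 0.26 TPM at most and *Mt4*, a gene of stratified epithelia, 2.27 TPM, and neither passed the filter on low counts. Nor did *Slc30a2*, *Slc30a8* and *Slc39a12*, at 0.91 TPM or less. Further genes reported as targets of Mtf1 (5 in all) had 0 changed in tumors against peritumoral liver by edgeR, where 7.90% of all tested genes were changed. At an unadjusted p under 0.05 there were 3, and DESeq2 and limma called 0. *Gclc*, which encodes the catalytic subunit for glutathione synthesis, was the only one changed in any of the 6 comparisons by edgeR, at 1.19 (SE 0.40, adjusted p = 0.0189) in tumors against DEN L-CD, where 14.3% of all tested genes were changed. It was at 133 to 884 TPM in tumors (281 ± 297, SD, n = 6) and 74.6 to 107 TPM in DEN L-CD, and it did not pass without tumor replicate 5 (0.45, adjusted p = 0.0862), without DEN L-CD replicate 1 (1.14, adjusted p = 0.0503) or without the 8 libraries with pancreatic transcripts (1.35, adjusted p = 0.0651), nor in a fit of the 2 groups alone (1.18, adjusted p = 0.0928) or, by its fold, with the replicate number as a block (0.33, adjusted p = 0.0189). In tumors against nonDEN L-WD, limma on log2 TPM called 1 of these 5 genes. Of 11 genes of copper handling 1 changed, *Cp*, the plasma copper protein ceruloplasmin, which rose in tumors by 1.32 against nonDEN L-WD (adjusted p = 4.31e-05) and by 1.25 against DEN L-CD (adjusted p = 8.97e-05), where 15.7% and 14.3% of all tested genes were changed. In tumors against peritumoral liver, where 7.90% of all tested genes were changed, none of the 11 was changed by edgeR (5 at an unadjusted p under 0.05, 0 by DESeq2 and 1 by limma on log2 TPM).

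The genes whose levels were most like those of *Mt1* and *Mt2* were ranked by Pearson's r of log2 CPM over the 25 libraries, among 11702 genes. This is a description in which the points share groups and library composition and include the 3 libraries of nonDEN L-CD, whose spread in *Mt1* was the widest in TPM, and by Spearman's rho only 2 of the 5 genes for *Mt1* and 3 of the 5 for *Mt2* stayed. *Mt2* came first for *Mt1* (r = 0.982). After it were *Hp* (haptoglobin, r = 0.965), *Slc37a1* (a sugar phosphate carrier, 0.928), *Lrg1* (0.895), *Itih4* (0.885) and *Ifitm2* (0.882). With each group's mean removed, which leaves only the spread between libraries of a group, they were *Mt2* (0.966), *Hp* (0.929), *Steap4* (0.895), *Lrg1* (0.892), *Il1r1* (0.886) and *Serpina10* (0.872). For *Mt2* the list was *Hp* (0.947), *Slc37a1* (0.929), *Ifitm2* (0.902), *Grn* (0.890) and *Irak4* (0.880), and with group means removed *Il1r1* and *Hp* (each 0.895), *Slc37a1* (0.888), *Ifitm2* (0.876) and *Steap4* (0.862).

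Since these genes were picked for their likeness over the same libraries, their values within nonDEN L-CD are a description. *Hp* was at 2300 TPM in replicate 1 and at 4950 and 4860 TPM in replicates 2 and 3. *Steap4*, an acute phase metalloreductase, was at 186, 626 and 563 TPM, and *Il1r1*, the interleukin 1 receptor, at 24.8, 80.8 and 75.0 TPM. *Grn*, the progranulin gene, was closer together, at 89.3, 98.7 and 113 TPM. A list of 25 acute phase and interleukin 6 response genes summed to 18837, 47160 and 47296 TPM in the 3 libraries, and to 12404 to 27195 TPM in the libraries of the other groups. DEN PT-WD replicates 7 and 8, the highest for *Mt1* and *Mt2*, were also the highest of their group on this list, at 27195 and 24731 TPM. The part of these genes in the metallothionein levels was not tested.

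**Figure D5:**
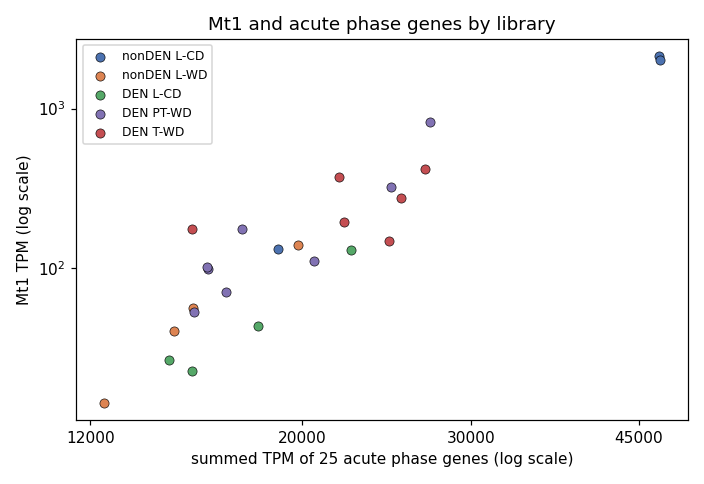
*Mt1* TPM against the summed TPM of 25 acute phase and interleukin 6 response genes in 25 libraries, both axes on a log scale, coloured by group. Replicates 2 and 3 of nonDEN L-CD lie alone at the upper right, at 47160 and 47296 TPM of the list, and replicate 1 lies among the other groups.

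In tumors against peritumoral liver, of 25 genes of the acute phase list 4 rose and 2 fell and 19 were not counted as changed, where 7.90% of all tested genes were changed, with a median log2 fold change of 0.17 against 0.01 over all tested genes. The largest were *Lcn2*, an iron-siderophore binding protein (2.15, SE 0.61, adjusted p = 0.00801), the endotoxin receptor *Cd14* (1.82, SE 0.22, adjusted p = 2.17e-06) and the interleukin 1 receptor antagonist *Il1rn* (1.58, SE 0.31, adjusted p = 0.000352). The genes that fell were *Orm3*, an orosomucoid gene (-1.40, adjusted p = 0.00924), which did not pass by limma on log2 TPM (-0.97, adjusted p = 0.0509), and *Hamp*, the gene of the iron hormone hepcidin (-1.30, adjusted p = 0.000943). In peritumoral liver against nonDEN L-WD 2 rose, *Lcn2* (2.44, adjusted p = 0.0448) and *Il1rn* (1.93, adjusted p = 0.00506), where 2.76% of all tested genes were changed. *Lcn2* lost its call without any of the 4 libraries of nonDEN L-WD or without DEN PT-WD replicates 3, 4, 5 or 8 (adjusted p of 0.0257 to 0.117 over all 12 fits), and neither passed without the 8 libraries with pancreatic transcripts (0.0695 and 0.0899). Against DEN L-CD, 2 rose in peritumoral liver, *Orm3* (2.13, adjusted p = 0.0110) and *Il1rn* (1.47, adjusted p = 0.0196), where 1.90% of all tested genes were changed, and *Il1rn* lost its call without DEN L-CD replicates 1, 2 or 3 (adjusted p = 0.0604, 0.0523 and 0.0798) or without those 8 libraries (0.0613). In tumors against nonDEN L-WD 5 rose and 1 fell, and against DEN L-CD 4 rose and 1 fell, where 15.7% and 14.3% of all tested genes were changed. *Lcn2* (4.59 and 3.93), *Il1rn* (3.51 and 3.05) and *Cd14* (2.51 and 2.52) were the largest, and *Hamp* fell in both (-1.19 and -1.82), but did not pass against nonDEN L-WD by limma on log2 TPM (-0.88) or without those 8 libraries (-1.03, adjusted p = 0.0978). Differences of the 25 from nonDEN L-CD are given as a description without a test. Their median log2 fold changes were -1.23 in untreated liver on the western diet, -1.03 in liver of DEN L-CD, -0.83 in peritumoral liver and -1.11 in tumors. Over all tested genes the medians were 0.01, 0.02, 0.04 and 0.02 in the same order.

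Glucocorticoid and fasting genes stand for the other signals named above. The 18 genes summed to 3282, 3412 and 3988 TPM in the 3 libraries of nonDEN L-CD, replicate 1 the lowest, and to 1579 to 3557 TPM in the other groups, which overlapped with these. Against nonDEN L-CD, as a description, 5, 3, 5 and 8 of the 18 were past both thresholds and lower in untreated liver on the western diet, liver of DEN L-CD, peritumoral liver and tumors, and 0, 0, 0 and 2 were higher, with medians of -0.35, -0.35, -0.31 and -0.93, where 5.28%, 4.70%, 13.3% and 20.3% of all tested genes were past both thresholds. In tumors against peritumoral liver 3 of the 18 rose and 1 fell, where 7.90% of all tested genes were changed, and the median log2 fold change was -0.35. The gene that fell was *G6pc* (-1.38, adjusted p = 0.000349), which encodes the last enzyme of glucose release. The largest were *Igfbp1* (2.24, adjusted p = 0.000415), *Fgf21* (1.72, adjusted p = 0.000432) and *Cdkn1a* (1.45, adjusted p = 0.00167), secreted factors of fasting and, in the case of *Cdkn1a*, a brake on the cell cycle. With the replicate number as a block *Igfbp1* did not pass (1.92, adjusted p = 0.0623). In tumors against nonDEN L-WD and against DEN L-CD falls outnumbered rises, with 3 genes higher and 5 lower in each and medians of -0.45 and -0.60, where 15.7% and 14.3% of all tested genes were changed. The rises were those of *Igfbp1* (3.26 and 2.56), *Cdkn1a* (2.52 and 2.46) and *Fgf21* (1.83 and 1.95), of which *Fgf21* did not pass against nonDEN L-WD without the 8 libraries with pancreatic transcripts (1.56, adjusted p = 0.0679). Among those that fell in both were *Pck1*, the entry enzyme of gluconeogenesis (-1.27 and -1.22, but short of the required fold by limma on log2 TPM, at -0.93 and -0.80), and *Tat*, the tyrosine aminotransferase (-1.51 and -1.49). In peritumoral liver against nonDEN L-WD, where 2.76% of all tested genes were changed, edgeR called 0 of the 18. At an unadjusted p under 0.05 there were 4, and DESeq2 and limma on log2 TPM called 1 each.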

How the data were processed

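RNA of 25 samples was sequenced from polyadenylated transcripts with single-end reads. The authors checked reads with FastQC, aligned them to GRCm38 with STAR and deposited RSEM's expected count per gene, which is not normalized and need not be whole. The authors also deposited TPM, RSEM's share of transcripts corrected for gene length. The annotation release, the versions of STAR and RSEM and the use of strand are not given in the sources used here, and deposited FPKM values were not used here. Symbols were matched to 48349 of 48795 identifiers.

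After rounding, the quasi-likelihood functions glmQLFit and glmQLFTest of edgeR 4.0.16 (R 4.3.3) were run on the expected counts of all 5 groups together, with TMM scaling and filterByExpr at a minimum of 10, with p-values adjusted by Benjamini-Hochberg for 15625 genes and thresholds of 0.05 and of 1 on the log2 scale. DESeq2 1.42.0, the tool of the study, and limma 3.58.1 on log2(TPM + 1) were alternatives, with size factors, no filter, fits of 2 groups, each replicate left out and the replicate number as a block. Levels are TPM, and log2 CPM used a prior count of 2. Intervals are 95%. Python 3.11.15, NumPy 2.4.6, pandas 2.3.3 and Matplotlib 3.10.9 were used. The test was checked on simulated data with known changes. Members and gene lists were chosen with earlier results of these data known, mainly the contrasts with nonDEN L-CD, and possibly others for the transporters. Named are the members, per list the 3 changed genes of largest log2 fold change, and the 5 genes most like *Mt1* and *Mt2* with at least 50 mean normalised counts and under 10% of sequence words shared. The other zinc transporters, *Orm3*, *Hamp*, *G6pc*, *Pck1*, *Tat* and *Grn* are outside these rules or were picked from their lists after their values were seen. Lists cover zinc transporters, metallothioneins, Mtf1 targets, copper handling, acute phase, glucocorticoid and fasting response, hepatocyte, pancreatic acinar, leukocyte and bile duct markers. No pair of replicates agreed within sampling noise (smallest chi-square per gene 26.9). The labels do not name the mouse of a sample, so p-values measure the spread between samples.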

Additional observations from a re-analysis of the deposited data

Results flagged for a closer look

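In groups of 4 to 10 samples, a highest or lowest library was marked when its gap to the next, as a share of the range, passed Dixon's 95% limit, which chance alone passes in about 1 in 20 groups. Of 28 combinations of gene and group, 6 were marked. DEN PT-WD replicate 7 was the highest of its 8 libraries for *Mt1* (828.3 TPM, next 320.4), *Mt2* (851.4 TPM, next 394.4) and *Slc39a14* (102.9 TPM, next 82.7). DEN T-WD replicate 5 was the highest of 6 tumors for *Slc39a4* (127.3 TPM, next 62.4) and the lowest for *Slc39a14* (49.3 TPM, next 95.4). *Slc30a10* in DEN L-CD replicate 2 was the lowest of 4, at 5.29 TPM against 5.87 for the next, a gap that is small in TPM.

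The contrast of DEN-treated with untreated mice went opposite ways for *Mt2* on the 2 diets. On the control diet all 4 libraries of DEN L-CD were below all 3 of nonDEN L-CD, with a ratio of mean TPM of 0.0204. With a library left out it ran from 0.0111 (without DEN L-CD replicate 1) to 0.0271 (without nonDEN L-CD replicate 2). The nearest libraries were nonDEN L-CD replicate 1 (108.6 TPM) and DEN L-CD replicate 1 (73.1 TPM). On the western diet all 8 of DEN PT-WD were above all 4 of nonDEN L-WD, with a ratio of 8.97, which was 5.04 without DEN PT-WD replicate 7. That separation holds in TPM but not in normalised counts, where nonDEN L-WD replicate 4 (315) was above DEN PT-WD replicates 4 and 6 (265 and 256). The difference was not tested, since *Mt2* was chosen on its level in nonDEN L-CD, and the western-diet samples are peritumoral while those on the control diet are not.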

How the results depend on the processing

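Counts of changed members were 1, 2, 0, 3, 3 and 0 in tumors against DEN PT-WD, peritumoral liver against nonDEN L-WD, peritumoral liver against DEN L-CD, tumors against nonDEN L-WD, tumors against DEN L-CD and DEN L-CD against nonDEN L-WD. DESeq2's size factors left all 6 counts as they were. In tumors against DEN PT-WD the count was 2 with no minimum fold change, where 37.7% of all tested genes passed the p-value threshold alone. In peritumoral liver against nonDEN L-WD it was 1 with no filter on low counts, 1 in a fit of the 2 groups and 0 without the 8 libraries with pancreatic transcripts, an alternative chosen after seeing the data. In peritumoral liver against DEN L-CD it was 1 by DESeq2 and 1 by limma on log2(TPM + 1). In tumors against nonDEN L-WD it was 5 with no minimum fold change, where 49.0% of all tested genes passed the p-value threshold alone. In tumors against nonDEN L-WD and DEN L-CD the counts were 4 each in a fit of the 2 groups and 3 and 2 with no filter. With each replicate left out, the counts ranged from 1 to 1, 1 to 2, 0 to 0, 2 to 4, 2 to 4 and 0 to 0 in the same order of comparisons, and the members that changed their side are named beside the results. Leaving out libraries also leaves fewer samples, and the cause was not tested otherwise.

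The replicate number as a block gave counts of 2 in tumors against DEN PT-WD (*Slc30a10* at -1.01 joined *Slc39a4*), 1 in peritumoral liver against nonDEN L-WD (*Mt2* lost), 1 in peritumoral liver against DEN L-CD (*Slc39a4* gained), 4 and 4 in the comparisons of tumors with nonDEN L-WD and DEN L-CD (*Mt1* gained), and 0 in DEN L-CD against nonDEN L-WD. The block turned the sign of *Mt2* to 1.41 in tumors against DEN PT-WD, and of *Slc39a14* to 0.19 and 0.11 in tumors against nonDEN L-WD and DEN L-CD. Whether equal numbers mark the same mouse is not stated. Mean correlations of same-numbered deviations over 3 to 6 pairs were -0.18 to 0.15, and all 3 samples correlated best with their own number only in DEN L-CD against nonDEN L-CD. These values cannot decide the question, since samples of the same mouse need not deviate alike.

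Under these alternatives signs turned for no member counted as changed. By limma on log2(TPM + 1), *Mtf1* turned to 0.13 in tumors against DEN PT-WD, 0.26 in peritumoral liver against DEN L-CD, 0.10 in tumors against nonDEN L-WD and 0.39 in tumors against DEN L-CD. The same scale turned *Mt2* to 0.79 in tumors against DEN PT-WD, and *Slc39a14* to 0.0022 in peritumoral liver against DEN L-CD, 0.27 and 0.30 in tumors against nonDEN L-WD and DEN L-CD, and -0.034 in DEN L-CD against nonDEN L-WD. Without the 8 libraries with pancreatic transcripts, *Mt1* turned to -0.38 and *Mtf1* to 0.037 in tumors against DEN PT-WD, *Slc39a14* to 0.18 in tumors against nonDEN L-WD, *Mt1* to 1.47 in DEN L-CD against nonDEN L-WD and *Slc30a1* to 0.15 in DEN L-CD against nonDEN L-CD.

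With a replicate left out, tumors against DEN PT-WD ranged from -0.021 to 0.82 for *Mt1*, -0.39 to 0.74 for *Mt2* and -0.030 to 0.028 for *Mtf1*. *Slc39a14* ranged from -0.092 to 0.14 and from -0.15 to 0.067 in tumors against nonDEN L-WD and DEN L-CD. In DEN L-CD against nonDEN L-WD the ranges were -1.04 to 0.76 for *Mt1*, -0.46 to 0.78 for *Mt2* and -0.0080 to 0.18 for *Slc39a14*. *Slc30a1* ranged from -0.30 to 0.18 in DEN L-CD and from -0.058 to 0.40 in peritumoral liver against nonDEN L-CD, where *Mt1* and *Mt2* kept their sign in all 4 groups. Of the 5 genes most like *Mt1*, 4 stayed with log2(TPM + 1) and 2 by Spearman's rho, and of those most like *Mt2*, 2 and 3 did. The 3 libraries of nonDEN L-CD and the unknown origin of samples by mouse limit what the differences can show.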
